A study of Mus musculus with 21 samples.

Results

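The genes that write, read, erase and protect DNA methylation were followed through 12 oocyte and 9 granulosa cell libraries of ICR mice. The set has 10 members of the 55335 gene identifiers measured, chosen by gene name: the methyltransferase genes Dnmt1, Dnmt3a, Dnmt3b and Dnmt3l, the DNMT1 partner Uhrf1, the oxidase genes Tet1, Tet2 and Tet3, and the maternal factors Dppa3 and Zfp57. Each member had 1 row per library. Levels are FPKM, a fragment count scaled by transcript length and by the mapped fragments of the library, so levels of different genes can be set side by side. Coverage, the mean read depth, can order genes otherwise, as it did for Dnmt3a below.

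The groups were Young (females of 6 to 8 weeks), Aged (18 months), and Aged mice that had received unsorted human umbilical cord mesenchymal stem cells (Aged + Unsorted), the subpopulation with high LRP1, a cell surface receptor (Aged + LRP1high), or that with low LRP1 (Aged + LRP1low). The cells were placed under the ovarian capsule 3 weeks before mature (MII) oocytes and granulosa cells were taken. There were 3 Young, 2 Aged, 2 Aged + Unsorted, 3 Aged + LRP1high and 2 Aged + LRP1low oocyte libraries, and 1, 2, 1, 3 and 2 granulosa cell libraries in the same order. All transplanted mice were aged. Granulosa cells are the somatic cells that surround the oocyte. The labels call the libraries biological replicates without saying whether they are single mice or pools, so the p-values measure the spread between these libraries.

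Methylation of the egg is set while the oocyte grows. DNMT3A, helped by its inactive partner DNMT3L, adds the marks, whereas DNMT1 copies them after replication once UHRF1 has brought it to half-methylated DNA. TET enzymes oxidise methylcytosine, and TET3 is the maternal form that acts in the zygote. DPPA3, also called Stella or PGC7, holds UHRF1 out of the nucleus and shields the maternal genome from TET3, and ZFP57 is a KRAB zinc finger protein that keeps methylation on imprinted control regions.

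The promoters of 5 members are shown because Dnmt1, Uhrf1, Tet3 and Zfp57 went up and down together across the oocyte libraries while Tet2 did not go with them. Each line is the 250 bases before the start that lies nearest the annotated 5′ end of the gene, from RefSeq (GRCm38.p6), written 5′ to 3′ on the gene's own strand with CpG dinucleotides in capitals. Tet3 had 1 start there, which lies inside the gene, downstream of its annotated 5′ end at chr6:83459084. The 1 start of Tet2 likewise lies downstream of its annotated 5′ end, at chr3:133545139.
Dnmt1, chr9:20959889-20960138, minus strand: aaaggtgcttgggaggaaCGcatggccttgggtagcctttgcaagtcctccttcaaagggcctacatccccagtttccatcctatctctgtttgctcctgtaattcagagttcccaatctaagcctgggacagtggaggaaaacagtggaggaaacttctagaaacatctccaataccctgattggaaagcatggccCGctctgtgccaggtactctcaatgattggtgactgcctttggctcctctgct
Uhrf1, chr17:56303087-56303336, plus strand: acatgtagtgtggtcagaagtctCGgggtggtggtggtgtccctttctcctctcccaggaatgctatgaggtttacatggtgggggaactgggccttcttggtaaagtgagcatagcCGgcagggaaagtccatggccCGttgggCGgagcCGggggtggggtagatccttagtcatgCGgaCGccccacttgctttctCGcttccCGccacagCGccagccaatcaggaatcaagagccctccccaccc
Tet3, chr6:83441679-83441928, minus strand: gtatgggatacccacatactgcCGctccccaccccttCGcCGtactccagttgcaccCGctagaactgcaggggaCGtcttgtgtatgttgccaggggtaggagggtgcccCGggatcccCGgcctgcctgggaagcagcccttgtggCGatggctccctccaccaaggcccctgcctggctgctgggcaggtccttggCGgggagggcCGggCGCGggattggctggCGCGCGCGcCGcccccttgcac
Zfp57, chr17:37000913-37001162, plus strand: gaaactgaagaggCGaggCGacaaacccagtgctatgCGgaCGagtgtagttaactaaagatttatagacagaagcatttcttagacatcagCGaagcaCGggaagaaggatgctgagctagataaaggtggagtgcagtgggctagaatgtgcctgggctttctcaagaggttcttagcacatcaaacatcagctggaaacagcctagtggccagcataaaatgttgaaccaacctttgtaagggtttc
Tet2, chr3:133544391-133544640, minus strand: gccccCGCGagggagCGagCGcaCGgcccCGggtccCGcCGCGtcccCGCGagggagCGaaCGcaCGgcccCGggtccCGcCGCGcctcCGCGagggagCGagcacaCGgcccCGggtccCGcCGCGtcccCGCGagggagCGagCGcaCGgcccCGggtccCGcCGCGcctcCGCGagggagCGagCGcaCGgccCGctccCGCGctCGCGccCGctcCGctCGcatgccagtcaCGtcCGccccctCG

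Of the 10 members, 9 had a promoter in this collection, and Dppa3 had none. In the windows shown, the 4 genes that moved together did not have a high CpG count in common. The window of Dnmt1 held 2 CpGs, that of Zfp57 held 6, that of Uhrf1 held 10 and that of Tet3 held 17, where the median of 32851 windows of this length was 6. The window of Tet2 held 51 CpGs, more than 99.9% of all windows. Dnmt1 had 3 annotated starts, and the other windows, farther into the gene, held 7 and 26 CpGs. Uhrf1 had 2, and its other window held 30 CpGs. Zfp57 had 3, and its other windows held 7 and 3. The CpG counts of Dnmt1 and Uhrf1 therefore depend on the start chosen. The deposited values are summed per gene, so the start used in these cells was not measured. Of 2 motifs searched on both strands, the E-box CACGTG was in none of the 9 members' windows and in 6.02% of all windows, and TAATTG, the element bound by the oocyte factor NOBOX, was in none of the 9 and in 7.17% of all.

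Before the members are described, the labels were checked against 9 other oocyte genes (Zp1, Zp2, Zp3, Gdf9, Bmp15, Ooep, Nlrp5, Oosp1 and H1f8). In 8 of the 12 oocyte libraries the median FPKM of these genes was between 65.2 and 774. In the oocyte libraries Young 1, Aged 1, Aged + LRP1low 1 and Aged + LRP1low 2 it was 0.805, 10.5, 4.76 and 7.22, so both Aged + LRP1low libraries lacked oocyte RNA at the usual level. The granulosa library Aged + Unsorted 1 had a median of 580 and correlated more with the oocyte library Aged + Unsorted 2 than with any other (Pearson r = 0.968 over 21767 genes, on log2 values). The other 8 granulosa libraries had medians of 0 to 4.11. Of 10 granulosa and cumulus cell genes, the summed FPKM was 1464 in the granulosa library Young 1 and 430 in Aged + LRP1high 3, but 1.11 and 1.17 in the 2 Aged granulosa libraries, where 5 and 4 of the 10 were listed at 0. These 2 libraries were also low in transcripts common to all cells. Actb was at 0.461 and 1.74 FPKM there, against 4048 in the granulosa library Young 1. Only 2734 and 2089 gene identifiers reached 1 FPKM in them. The summed FPKM of 6 luteal genes exceeded that of the granulosa and cumulus cell genes in the granulosa libraries Aged + LRP1low 1 (5660 against 57.2), Aged + LRP1high 1 (1789 against 25.7) and Aged + LRP1low 2 (72.7 against 4.70), and, at lower levels, in Aged + LRP1high 2 (7.37 against 3.42) and Aged 2 (2.07 against 1.17). The 5 libraries that went against their label are marked below, and values without them are given where libraries remain on both sides of a comparison. Estimated from coverage, the aligned depth of oocyte libraries was 0.278 to 3.40 gigabases, and that of granulosa libraries 0.335 to 1.49 gigabases. One read of 150 bases on a transcript of 1 kilobase was then worth 0.0441 to 0.540 FPKM. Some transcripts common to all cells, those of Gapdh or Eef1a1, were also listed at 0 in 4 libraries, so a 0 is given only as listed.

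**Figure D1:**
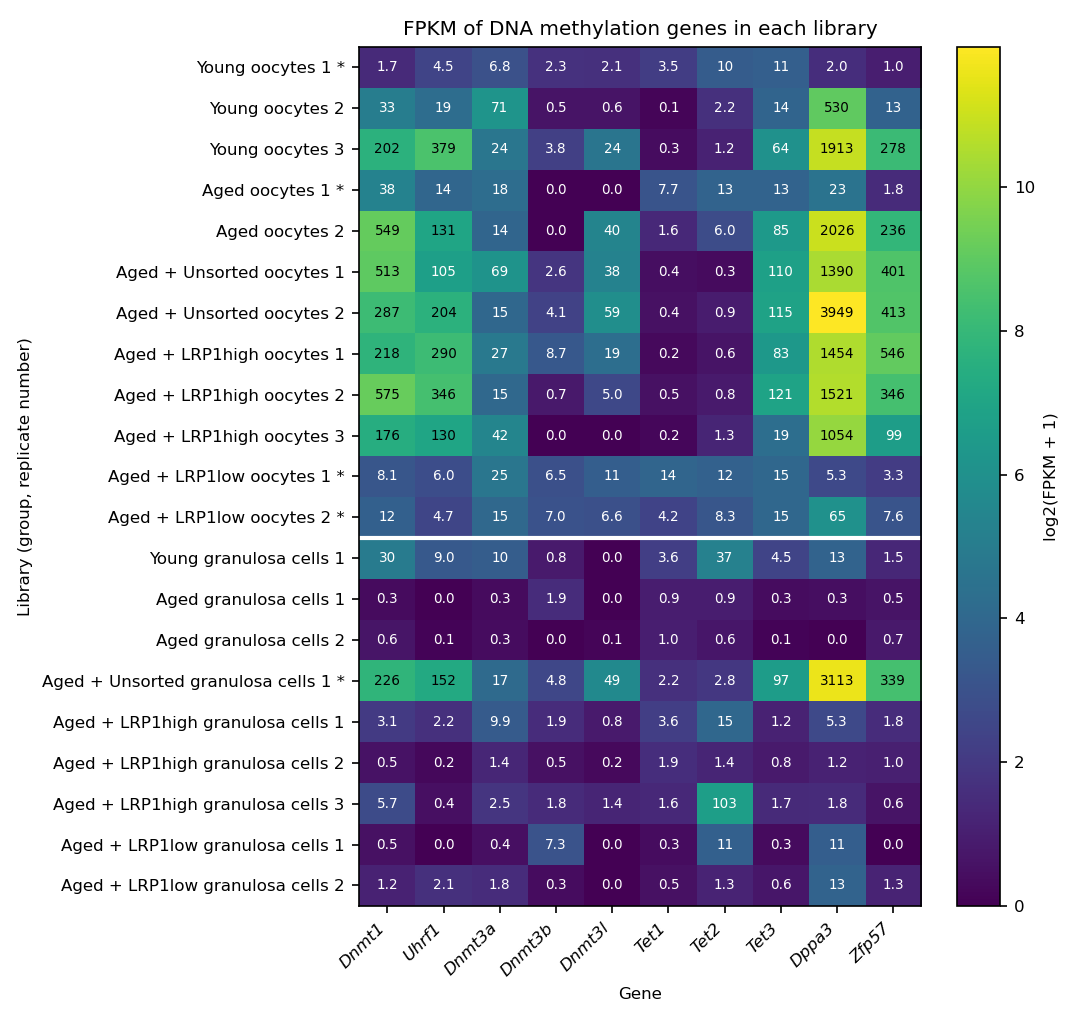
FPKM of the 10 genes (columns) in each of the 21 libraries (rows), coloured by log2(FPKM + 1), with the FPKM printed in each cell. The white line separates oocyte from granulosa libraries and an asterisk marks the 5 libraries that went against their label. Dppa3 reached 530 to 3949 FPKM in the 8 unmarked oocyte libraries and at most 13.1 in the 8 unmarked granulosa libraries.

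Dppa3 was the most abundant member of the set in the oocyte. Its FPKM was 530 and 1913 in Young 2 and Young 3, 2026 in Aged 2, 1390 and 3949 in Aged + Unsorted, and 1454, 1521 and 1054 in Aged + LRP1high. In the oocyte libraries that went against their label it was 1.98 (Young 1), 22.6 (Aged 1), 5.27 and 65.3 (Aged + LRP1low). Among 21398 protein-coding genes, Dppa3 stood at percentile 99.7 or higher in every oocyte library that had the oocyte markers.

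Zfp57, Dnmt1 and Uhrf1 formed the next tier. Zfp57 was at 12.5 FPKM in Young 2, 278 in Young 3, 236 in Aged 2, 401 and 413 in Aged + Unsorted, and 546, 346 and 99.1 in Aged + LRP1high. Zfp57 was low in the 4 marked oocyte libraries (0.995 to 7.59 FPKM), which do not overlap the other 8. Dnmt1, the maintenance enzyme, was at 33.0 and 202 FPKM in Young 2 and Young 3, 549 in Aged 2, 513 and 287 in Aged + Unsorted, and 218, 575 and 176 in Aged + LRP1high. In the marked libraries Dnmt1 was at 1.69 to 37.9 FPKM, and the highest of these, Aged 1, passed Young 2. Uhrf1 was at 18.6 and 379 FPKM in Young 2 and Young 3, 131 in Aged 2, 105 and 204 in Aged + Unsorted, and 290, 346 and 130 in Aged + LRP1high, against 4.53 to 14.4 in the marked libraries.

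Tet3 was the TET gene of the oocyte. Its FPKM was 13.5 and 64.0 in Young 2 and Young 3, 84.6 in Aged 2, 110 and 115 in Aged + Unsorted, and 82.8, 121 and 19 in Aged + LRP1high. Unlike Dppa3, Tet3 kept 11.2 to 15.1 FPKM in the marked oocyte libraries, the level of Young 2. Tet1 and Tet2 went the other way. Tet2 was at 0.274 to 5.95 FPKM in the 8 unmarked oocyte libraries and at 8.27 to 13.1 in the 4 marked ones. Tet1 was at 0.102 to 1.58 FPKM in the former and 3.49 to 14.0 in the latter, with no overlap for either gene. The median FPKM of all protein-coding genes was also higher in the marked libraries. It was 1.16 in Young 1, 4.08 in Aged 1, and 5.22 and 3.81 in Aged + LRP1low, against 0 to 0.434 in the unmarked ones. The TET levels in the marked libraries are to be read against that.

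Among the de novo genes, Dnmt3a had the highest median FPKM. Its place above Dnmt3l depended on the measure. In Young 3 and Aged + LRP1high 1, Dnmt3a was above Dnmt3l by FPKM. By coverage divided by the depth of the library it was below (4.03 against 5.39, and 4.04 against 4.78). The FPKM of Dnmt3a in the unmarked oocyte libraries ran from 13.9 in Aged 2 to 71.4 in Young 2, with a median of 25.9, and the marked libraries (6.77 to 24.6) overlapped that range. Dnmt3l, the partner without catalytic activity, had a median of 21.5 FPKM but ran from 0 in Aged + LRP1high 3 to 58.8 in Aged + Unsorted 2. Dnmt3b, the somatic and embryonic enzyme, had a median of 1.66 FPKM and a highest value of 8.70 in Aged + LRP1high 1, and was listed at 0 in both Aged libraries. An antisense gene overlaps exons of Dnmt3a (Dnmt3aos) and of Tet2 (Gm42567), and Aire overlaps Dnmt3l on the other strand. The sources do not say that strand was used in quantification, so these 3 values may include reads of the neighbour.

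Over the 8 unmarked oocyte libraries the order of median levels was Dppa3 (1488 FPKM), Zfp57 (312), Dnmt1 (252), Uhrf1 (167), Tet3 (83.7), Dnmt3a (25.9), Dnmt3l (21.5), Dnmt3b (1.66), Tet2 (1.02) and Tet1 (0.351). Dppa3 was above Zfp57 in all 8 libraries. Zfp57 was above Dnmt1 in 3 of 8 and Dnmt3b was above Tet2 in 4 of 8, so the neighbours in these pairs did not differ beyond their spread. The remaining neighbours kept their order in 6 or 7 of the 8 libraries, and the ranges of all neighbours overlapped.

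The level of several members followed the oocyte markers from library to library. As a description over 12 oocyte libraries, which differ in depth and oocyte RNA together, Pearson's r of log2(FPKM + 1) with the mean of the 9 markers was 0.97 for Dppa3, 0.97 for Zfp57, 0.96 for Dnmt1, 0.95 for Uhrf1 and 0.89 for Tet3. It was 0.54 for Dnmt3l, 0.34 for Dnmt3a and -0.09 for Dnmt3b. It was negative for Tet1 (-0.80) and Tet2 (-0.86). Over the 8 unmarked libraries alone, r was 0.90 for Dppa3, 0.96 for Zfp57, 0.82 for Dnmt1, 0.83 for Uhrf1, 0.94 for Tet3 and 0.84 for Dnmt3l. It was then 0.53 for Dnmt3b, 0.48 for Tet1, -0.25 for Tet2 and -0.70 for Dnmt3a, so the sign for Tet1, Dnmt3b and Dnmt3a turned without the marked libraries. Within the 8 unmarked libraries the SD of Dnmt3a on the log2 scale was 0.93, and it rose to 1.97 when the marker level was subtracted, whereas the SD of Tet3 fell from 1.19 to 0.42 and that of Zfp57 from 1.74 to 0.67. Relative to the markers, Tet3 lay between -3.23 and -2.19 on the log2 scale in all 8 libraries. In bulk libraries like these, fewer oocytes and less RNA per oocyte cannot be told apart.

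**Figure D2:**
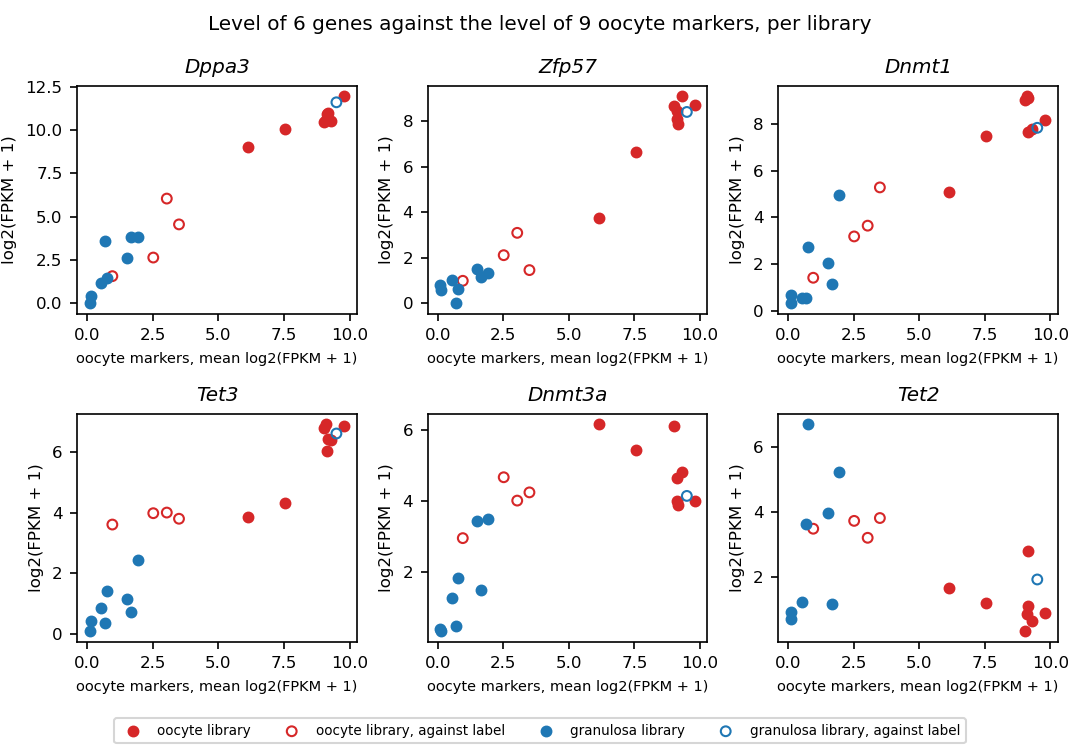
Level of 6 genes, log2(FPKM + 1), against the mean log2(FPKM + 1) of 9 oocyte markers in each of the 21 libraries, with oocyte libraries in red, granulosa libraries in blue and open circles for the 5 libraries that went against their label. Dppa3, Zfp57 and Dnmt1 rise along the marker axis, with r of 0.97, 0.97 and 0.96 over the 12 oocyte libraries and 0.90, 0.96 and 0.82 over the 8 unmarked ones, while for Tet2 r is -0.86 over the 12 and -0.25 over the 8.

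Among themselves, Dnmt1, Uhrf1, Tet3, Dppa3 and Zfp57 had pairwise r of 0.80 to 0.94 over the 12 oocyte libraries, and Tet1 with Tet2 had 0.91. Over the 8 unmarked libraries these were 0.67 to 0.90 and 0.66. The genes nearest to each member by the same measure over the 12 libraries, marked ones included, among 4066 genes with a mean of at least 10 FPKM, were oocyte genes in several cases. Nearest to Zfp57 were Kat14 (r = 0.99), Gdf9 (0.99), the oocyte growth factor gene, and Fbxw16 (0.99). Nearest to Dnmt1 were Npm2 (0.98), which encodes the egg's nucleoplasmin, Bcl2l10 (0.98) and Plac8 (0.98). Uhrf1 was nearest to Kpnb1 (0.98), Fbxw18 (0.98) and Atp5o (0.98). Dppa3 was nearest to Khdc1b (0.99), Ldhb (0.98) and H3f3b (0.98), and Tet3 to Immp1l (0.99), Plaa (0.99) and Smu1 (0.98). For Dnmt3l the nearest were Psrc1 (0.97), Cfap97 (0.96) and E030030I06Rik (0.96). For Dnmt3a the nearest genes were farther off, at 0.83 (G3bp1) and 0.83 (Dtx3l). These are descriptions over libraries that share differences in depth and oocyte RNA.

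In granulosa cells most members were low, and Tet2 was the highest member in several libraries. In the 8 unmarked granulosa libraries Tet2 was at 103 FPKM in Aged + LRP1high 3, 36.7 in Young 1, 14.8 in Aged + LRP1high 1, 11.5 in Aged + LRP1low 1, and 0.650 to 1.38 in the other 4. The 2 highest libraries were those with the highest sums of granulosa cell genes. Dnmt1 was at 29.9 FPKM in Young 1 and 0.254 to 5.73 in the other 7. Tet3 did not pass 4.48 FPKM in these libraries, and Zfp57 did not pass 1.85. Dppa3 was at 13.1 FPKM in Young 1, 11 and 13.1 in Aged + LRP1low, 1.24 to 5.28 in Aged + LRP1high and 0 and 0.349 in Aged. Dnmt3b was in the same range as in oocytes, with 0 to 7.27 FPKM.

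The granulosa library Aged + Unsorted 1 had the oocyte profile in full. Dppa3 was at 3113 FPKM there, Zfp57 at 339, Dnmt1 at 226, Uhrf1 at 152, Tet3 at 97.0 and Dnmt3l at 49.3. These are 0.745 to 0.841 of the FPKM in the oocyte library Aged + Unsorted 2. For Tet1 and Tet2 the ratio was 5.07 and 3.28, at levels of 2.18 and 2.82 FPKM.

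The comparison of oocytes with granulosa cells asks which members belong to the germ cell. Of the 10, 5 were higher in oocytes, namely Tet3, Uhrf1, Dnmt1, Dnmt3a and Dppa3. In limma's moderated test over 21 libraries, as the mean of 5 oocyte groups against the mean of 5 granulosa groups, Tet3 was higher by 3.06 ± 0.47 (log2 difference ± SE, on log2(FPKM + 1); adjusted p = 0.0167). Dppa3 was higher by 3.95 ± 1.04 (adjusted p = 0.0495), Dnmt1 by 3.23 ± 0.70 (0.0285), Uhrf1 by 3.22 ± 0.67 (0.0275) and Dnmt3a by 2.33 ± 0.48 (0.0275). A gene was called when its adjusted p was under 0.05 and its fold over 1.5, and 3% of 21767 genes were called, 634 higher and 20 lower. The median difference of all genes was 0.62, and that of the 10 members 2.70. Zfp57 (3.24 ± 0.86, adjusted p = 0.0505) and Dnmt3l (1.92 ± 0.71, adjusted p = 0.144) passed at an unadjusted p under 0.05, as did 21.4% of all genes. Dnmt3b (0.17), Tet1 (0.02) and Tet2 (-0.80) were not called.

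Without the 5 libraries that went against their label, 7 of the 10 members were higher in oocytes, Zfp57 and Dnmt3l included, where 32.2% of 12705 genes were called. Dppa3 then differed by 8.26 ± 0.44, Zfp57 by 6.72 ± 0.67, Dnmt1 by 6.03 ± 0.54, Uhrf1 by 5.89 ± 0.66, Tet3 by 4.92 ± 0.50, Dnmt3l by 3.76 ± 0.75 and Dnmt3a by 3.03 ± 0.53. No Aged + LRP1low oocyte and no Aged + Unsorted granulosa library remained, so the means are over the groups left. The granulosa libraries left were screened by oocyte markers only. The sum of granulosa and cumulus cell genes was 1.11 and 1.17 FPKM in the Aged ones, and in several others luteal genes exceeded it. How far the differences rest on such libraries was not tested. The libraries were left out by their levels of other oocyte genes, so a gene that follows those genes had to differ more. Tet2 was lower by 1.68 ± 0.75 and Tet1 by 0.72 ± 0.31, neither called (adjusted p = 0.106 and 0.0952). In the Aged + LRP1high libraries alone, all of which matched their label by the oocyte markers, Dppa3 differed by 8.60, Uhrf1 by 7.08, Zfp57 by 7.0, Dnmt1 by 6.35 and Tet3 by 4.74, with adjusted p of 6.2e-05 to 0.0032 in limma, where 12.7% of all genes were called. The calls over all 21 libraries were not stable. Without the oocyte library Aged + LRP1low 1, the granulosa library Aged 1 or the granulosa library Aged 2, no gene at all was called (0%), members included. Leaving out the oocyte library Aged + Unsorted 1 or Aged + LRP1low 2, or the granulosa library Aged + LRP1high 2 or Aged + LRP1low 1, left Tet3 alone of the members, where 0.166% to 0.482% of all genes were called. Leaving out the oocyte library Aged 1 or the granulosa library Aged + Unsorted 1 gave 7 calls, where 8.59% and 15.2% of all genes were called.

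**Figure D3:**
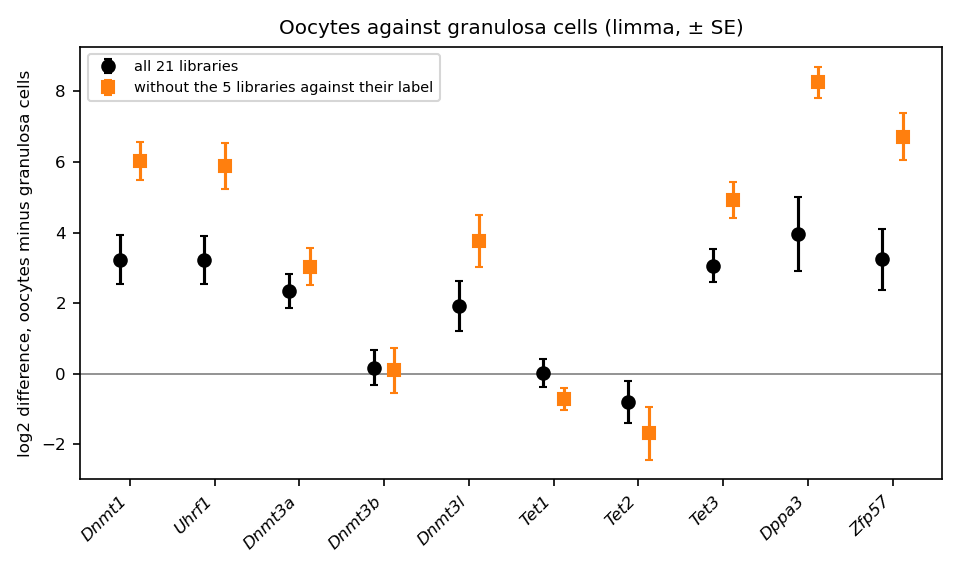
Log2 difference in log2(FPKM + 1), oocytes minus granulosa cells, with its SE (limma) for the 10 genes, over all 21 libraries (circles) and without the 5 that went against their label (squares). The differences of 7 genes grow without these libraries, Dppa3 from 3.95 to 8.26, while Dnmt3b stays near 0 (0.17 and 0.09) and Tet2 lies below it.

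The make-up of the TET family differed between the cell types. Tet3 took 78.2% ± 26.3 (SD, n = 12) of the summed FPKM of Tet1, Tet2 and Tet3 in oocyte libraries and 20.1% ± 29.4 (SD, n = 9) in granulosa libraries, a difference of 58.0 percentage points (two-sided exact permutation test, p = 0.000459, adjusted p = 0.00138 over 3 ratios). The share was 85.5% to 99.4% in the 8 unmarked oocyte libraries, 36.1% to 54.7% in the 4 marked ones, 1.56% to 27.0% in the 8 unmarked granulosa libraries and 95.1% in the marked one. These 4 sets of libraries did not overlap, apart from the marked granulosa library, which lay among the unmarked oocyte libraries. Without the 5 marked libraries the difference was 84.7 points (exact permutation p = 0.000155, the smallest possible for 8 against 8). Those libraries were chosen by oocyte markers, which Tet3 followed, so this p-value is not independent of that choice. A share within a library does not depend on how the library was scaled, but it is uncertain where all 3 genes are low. In the granulosa libraries Aged 1, Aged 2, Aged + LRP1high 2 and Aged + LRP1low 2, no TET gene passed 1.93 FPKM. Each of these libraries counts in the test like any other.

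Dnmt1 dominated the DNMT family in most oocytes. Its share of the summed FPKM of Dnmt1, Dnmt3a, Dnmt3b and Dnmt3l was 78.7% to 96.5% in 7 of the 8 unmarked oocyte libraries and 31.2% in Young 2. In Young 2 Dnmt3a was above Dnmt1 by FPKM (71.4 against 33.0) but below it by coverage divided by depth (11.8 against 25.9). Over all libraries the share was 62.1% ± 30.5 (SD, n = 12) in oocytes and 38.9% ± 26.9 (SD, n = 9) in granulosa cells, which did not differ beyond the spread (exact permutation p = 0.0867, adjusted p = 0.13). Without the marked libraries it was 77.4% ± 19.7 (SD, n = 8) against 34.2% ± 24.6 (SD, n = 8; exact permutation p = 0.00295, adjusted p = 0.00295). The log2 ratio of Dppa3 to Uhrf1, the protein it restrains, was taken after 1 FPKM was added to each gene. This ratio was 2.47 ± 1.79 (SD, n = 12) in oocytes and 1.54 ± 1.52 (SD, n = 9) in granulosa cells (exact permutation p = 0.222, adjusted p = 0.222). Without the marked libraries it was 3.31 ± 1.00 (SD, n = 8) against 1.18 ± 1.17 (SD, n = 8), a difference of 2.13 (exact permutation p = 0.0028, adjusted p = 0.00295). The median of Uhrf1 was 0.300 FPKM in the unmarked granulosa libraries. The added 1 pulls ratios of such low values towards 0, so the size of the difference depends on it. In the unmarked oocyte libraries the ratio ran from 2.13 in Aged + LRP1high 2 to 4.76 in Young 2, so Dppa3 always exceeded Uhrf1. The marked libraries were chosen by oocyte markers, which Dnmt1 and Dppa3 followed. The p-values of the Dnmt1 share and of this ratio without them are therefore not independent of that choice.

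**Figure D4:**
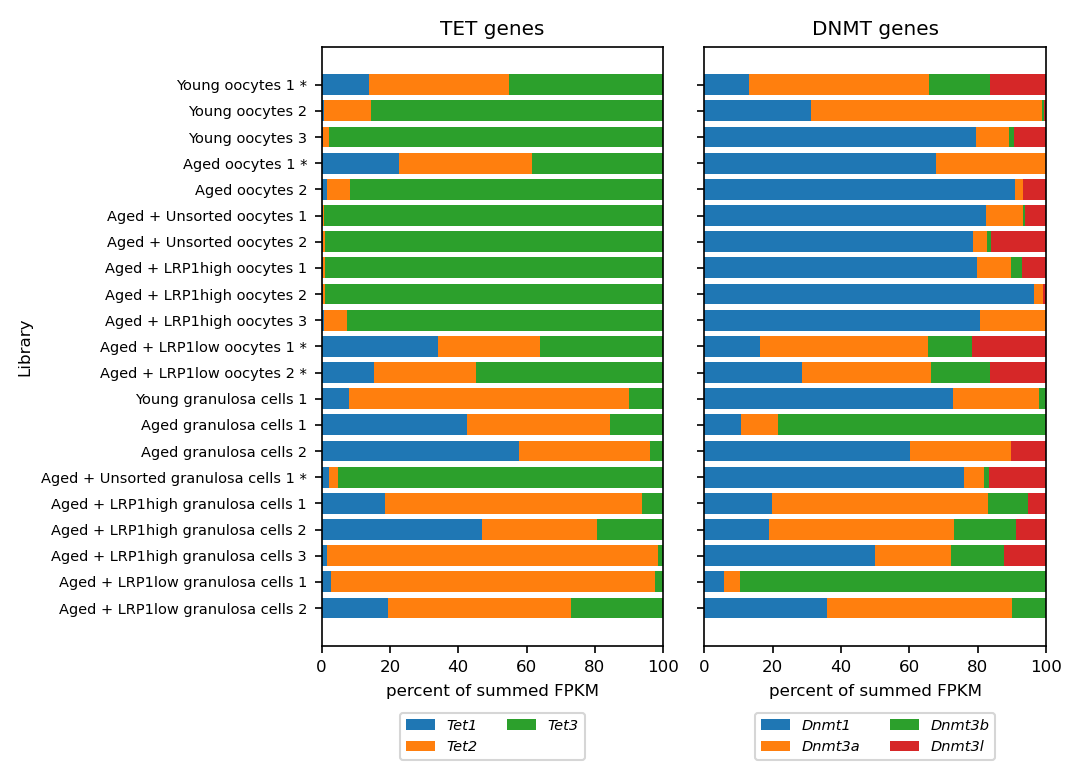
Share of each gene in the summed FPKM of the TET genes (left) and of the DNMT genes (right), in percent, for each of the 21 libraries, with an asterisk on the 5 that went against their label. Tet3 fills 85.5% to 99.4% of the TET sum in the unmarked oocyte libraries and 1.56% to 27.0% in the unmarked granulosa libraries.

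Among oocytes, the comparison of Aged with Young asks whether age altered the machinery. No member was called in limma, none passed at an unadjusted p under 0.05 either, and 0.0964% (adjusted) and 8.65% (unadjusted) of 28004 genes did. Dnmt1 was at 37.9 and 549 FPKM in Aged and 1.69, 33.0 and 202 in Young, a log2 difference of 2.47 ± 1.58 (adjusted p = 0.519). Dppa3 overlapped in the same way, with 22.6 and 2026 FPKM in Aged and 1.98, 530 and 1913 in Young. Each group held a library without the oocyte markers. Without those, Aged is a single library, and the difference was 2.73 for Dnmt1, 1.01 for Dppa3 and -1.53 for Dnmt3a, given as values only.

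The transplanted groups were compared with Aged oocytes to learn whether the cells shifted these genes. In Aged + Unsorted no member was called, as no gene was (0% of 28004), and 1 was lower at an unadjusted p under 0.05, where 8.74% of genes passed. This was Tet2, at 0.274 and 0.860 FPKM against 13.1 and 5.95 in Aged (-2.69 ± 0.84, unadjusted p = 0.0087 and adjusted p = 0.22 in limma). In Aged + LRP1high no member was called, where 0.771% of genes were, and 2 were lower at an unadjusted p under 0.05, where 10.9% of genes passed. Tet2 was at 0.568, 0.842 and 1.34 FPKM (-2.39 ± 0.77, adjusted p = 0.186 in limma), and Tet1 at 0.243, 0.474 and 0.157 against 7.68 and 1.58 in Aged (-1.88 ± 0.82, adjusted p = 0.37). In both comparisons the Aged values rest in part on Aged 1, which lacked the oocyte markers. The median change of all genes was -0.86 and -1.05. Against Aged 2 alone, Tet2 was lower by 2.18 in Aged + Unsorted and by 1.88 in Aged + LRP1high, with no replicate on the Aged side. Without Aged 2 instead, limma called Tet2 (-3.20) and Zfp57 (7.21) in Aged + Unsorted, and Tet1 (-2.76) and Tet2 (-2.90) in Aged + LRP1high. These runs called 36.9% and 39.5% of all genes, and the remaining Aged library, which lacked the oocyte markers, is assumed in them to vary like the other groups. These comparisons share the Aged libraries.

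Against Young, Aged + LRP1high oocytes had no called member and no called gene (0% of 28004), and 1 member, Dnmt1, was higher at an unadjusted p under 0.05, where 3.17% of genes passed (3.41 ± 1.41, unadjusted p = 0.0342, adjusted p of 1 in limma). Without the marked libraries the difference of Dnmt1 was 1.76. The Aged + LRP1low oocytes had no called member against Aged, where 3.17% of genes were called, and Dnmt3b alone passed unadjusted, with 14.1% of genes. Dnmt3b was at 6.46 and 6.98 FPKM and was listed at 0 in both Aged libraries. The median FPKM of all protein-coding genes was 5.22 and 3.81 in Aged + LRP1low, and 4.08 and 0 in Aged.

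The comparison of Aged + LRP1high with Aged + LRP1low oocytes, which sets the subpopulations against each other, gave 4 calls. Dnmt1 was at 176 to 575 FPKM in Aged + LRP1high and at 8.12 and 11.5 in Aged + LRP1low, higher by 4.72 ± 1.58 (log2 ± SE, adjusted p = 0.0489 in limma). Uhrf1 was higher by 5.23 ± 1.5 (adjusted p = 0.0358). Tet1 was lower by 2.79 ± 0.82 (adjusted p = 0.0377), with 0.157 to 0.474 FPKM against 14.0 and 4.24, and Tet2 was lower by 2.55 ± 0.77 (adjusted p = 0.0396), with 0.568 to 1.34 FPKM against 12.3 and 8.27. Here 26% of all genes were called and 49.1% passed at an unadjusted p, 6951 of the called genes being lower, so 4 calls of 10 are to be read against that. Dppa3 (6.02 ± 2.47, adjusted p = 0.0782) and Zfp57 (5.45 ± 2.02, adjusted p = 0.0617) passed unadjusted only.

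Both Aged + LRP1low libraries lacked the oocyte markers, so the comparison cannot be told apart from one of oocyte RNA content, and it has no value without them. When the libraries were scaled to the 9 markers, the median of all genes was -7.78 and 83.7% of genes were called, all lower. Dnmt1 (-1.17), Uhrf1 (-0.66) and Zfp57 (-0.44) then lay near 0 and above that median, and were not called. Leaving out any one of the 5 libraries compared (Aged + LRP1high 1, 2 or 3, or Aged + LRP1low 1 or 2) ended all 4 calls. In 4 of these 5 runs no gene at all was called, and without Aged + LRP1low 1 it was 1.39% of genes, so the calls of other genes were lost as well. In the Aged + LRP1low libraries 47920 and 38934 gene identifiers reached 1 FPKM, against 4525 to 11026 in Aged + LRP1high, and all of the 10 granulosa, 6 luteal, 6 stromal, 7 immune and 4 endothelial genes checked were above 0 in both. Their part in the result was not tested.

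**Figure D5:**
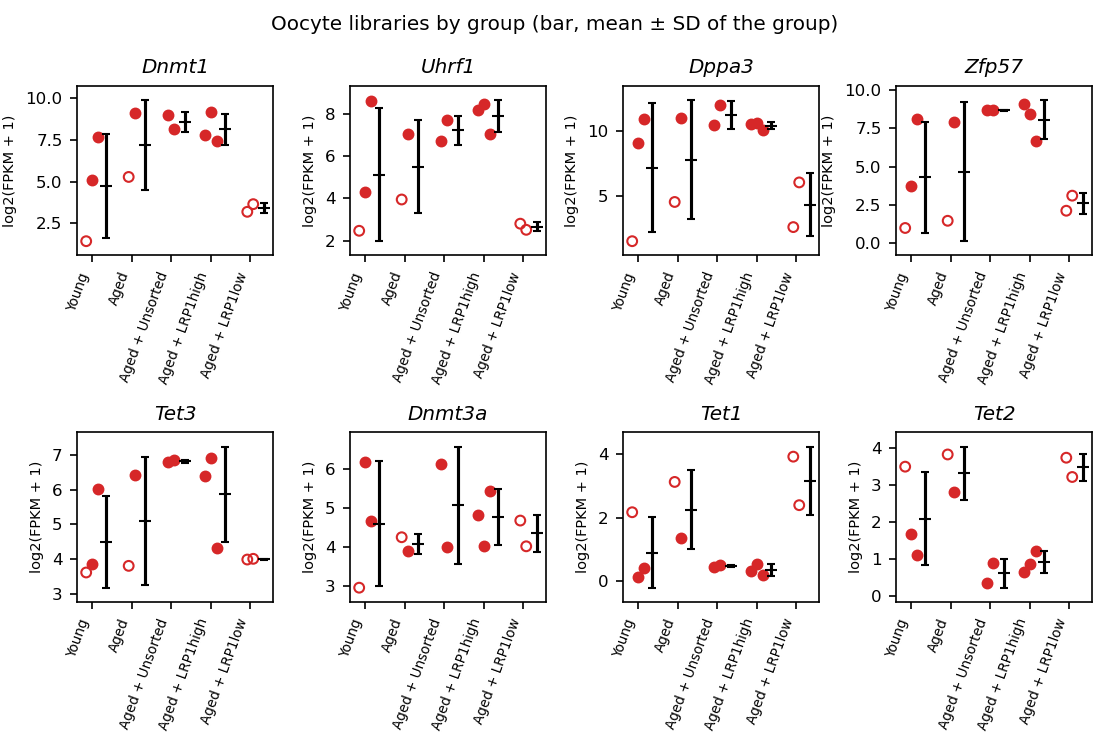
Log2(FPKM + 1) of 8 genes in each oocyte library by group, with the group mean ± SD as bars beside the points (n = 3, 2, 2, 3 and 2 libraries) and open circles for libraries without the oocyte markers. Dnmt1, Uhrf1, Dppa3 and Zfp57 are low, and Tet1 and Tet2 high, in the open circles of Young, Aged and Aged + LRP1low.

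In granulosa cells, Aged + LRP1high against Aged gave no called member and no called gene (0% of 13002). The median change of all genes was 0.89, and that of the 10 members 0.81. At an unadjusted p under 0.05, where 8.51% of genes passed (1039 higher and 67 lower), Dnmt3a and Dppa3 were higher. Dnmt3a was at 9.93, 1.41 and 2.54 FPKM against 0.256 and 0.303 in Aged (1.83 ± 0.73, adjusted p = 0.458 in limma). Dppa3 was at 5.28, 1.24 and 1.81 FPKM against 0.349 and 0 (1.55 ± 0.54, adjusted p = 0.458). Aged + LRP1low against Aged likewise gave no called member or gene (0%), and Dppa3 was the only member to pass unadjusted, with 3.79% of genes, at 11 and 13.1 FPKM (3.49 ± 0.59, unadjusted p = 0.00111, adjusted p = 0.72 in limma). Both Aged granulosa libraries had near 0 of the granulosa genes, and Actb, common to all cells, was at only 0.461 and 1.74 FPKM in them. Changes against Aged in granulosa cells therefore rest on libraries with little of either. The levels of Tet2, at 14.8, 1.38 and 103 FPKM in Aged + LRP1high and 0.913 and 0.650 in Aged, were not called (3.15 ± 1.62, adjusted p = 0.458 in limma).

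The LRP1high change was then compared between oocytes and granulosa cells. No member's difference was called, as no gene's was (0% of 21767), and 2 passed at an unadjusted p under 0.05, where 16% of genes did. Tet2 differed by -5.54 ± 1.66 (adjusted p = 0.12 in limma) and Tet1 by -2.62 ± 1.07 (adjusted p = 0.269), where the median of all genes was -1.68. Without Aged oocyte library 2 both were called (-6.05 and -3.50), along with 35.6% of all genes, and without the marked libraries neither was (-5.03 and -1.75), where 508 of 12705 genes were called. In both runs Aged oocytes are 1 library, assumed to vary like the other groups.

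The partners of the members were described from 7 lists of 75 genes. In oocytes against granulosa cells, with 3% of genes called, 1 of 10 base excision genes tested was higher, Xrcc1, the scaffold of single-strand break repair (2.17 ± 0.45, adjusted p = 0.0275 in limma). One of 10 methyl donor genes was higher, Mthfd1, of the folate cycle (1.91 ± 0.43, adjusted p = 0.0314), and 1 of 13 imprinted genes, Mest (2.68 ± 0.59, adjusted p = 0.031). None of 11 cofactors of imprint protection, 11 histone mark genes, 9 methyl-CpG readers or 8 DNMT1 partners was called. The list medians were 0.90 for imprint protection, 1.02 for histone marks, -0.08 for the readers, 0.39 for base excision, 0.52 for methyl donors, 0.85 for DNMT1 partners and 0.51 for imprinted genes, beside 0.62 for all genes.

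Without the marked libraries, where 32.2% of genes were called, 6 of 11 genes of imprint protection were higher in oocytes. They included Setdb1, the histone methyltransferase of the ZFP57 and TRIM28 complex (3.13 ± 0.40), and Trim28 itself (2.38 ± 0.80). Of the histone mark genes, 5 of 11 were higher, among them Kdm1b (2.77 ± 0.76), the demethylase needed for maternal imprints, and Hells (2.77 ± 0.67). Of the methyl-CpG readers, 3 of 8 were lower and none higher, among them Zbtb38 (-1.87 ± 0.51) and Uhrf2, the paralog of Uhrf1 (-1.38 ± 0.43). Of 7 methyl donor genes, 2 were higher, and the larger was Mat2b, a subunit of methionine adenosyltransferase, at 148 to 756 FPKM in the 8 oocyte libraries and 0 to 115 in the 8 granulosa libraries (5.85 ± 0.50). Of 9 imprinted genes, 4 were higher and 1 lower, led by Mest (3.81 ± 0.73) and Igf2r (3.64 ± 0.98), with Meg3 lower (-1.20 ± 0.40). Of 8 base excision genes, 2 were higher, Xrcc1 (3.15 ± 0.56) and Smug1 (2.25 ± 0.62). Of 7 DNMT1 partners, Hdac2 (3.25 ± 0.45) and Rfc1 (2.31 ± 0.68) were higher and Setd7 was lower (-1.42 ± 0.40).

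Within a cell type, list genes were called in only 2 comparisons, both with the Aged + LRP1low oocytes. Against Aged, where 3.17% of all genes were called, Bhmt, a methyl donor gene, was higher in Aged + LRP1low (3.29 ± 0.64, adjusted p = 0.0421 in limma), at 8.83 and 8.73 FPKM where both Aged libraries were listed at 0. In Aged + LRP1high against Aged + LRP1low 26% of all genes were called, 340 higher and 6951 lower, and the calls below are to be read against that. Mat2b (5.59 ± 1.67), Igf2r (5.01 ± 1.64) and Pcna, the replication clamp (4.15 ± 1.38), were higher. Dlk1 (-3.55 ± 1.05), Zbtb38 (-3.47 ± 1.17), Setd7 (-3.00 ± 0.77), Bhmt (-2.98 ± 0.59) and Gadd45b (-2.83 ± 0.72) were lower, with adjusted p of 0.0192 to 0.0495 in limma. All of these rest on the Aged + LRP1low libraries, which lacked the oocyte markers. The median FPKM of all protein-coding genes was 5.22 and 3.81 in them, and the levels of Bhmt and of the genes that were lower in Aged + LRP1high are to be read against that.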

How the data were processed

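RNA of 12 oocyte and 9 granulosa cell libraries was sequenced. The authors aligned reads with HISAT2 2.2.1 and quantified genes with StringTie 1.3.3b, and deposited coverage, FPKM and TPM per gene. The deposited FPKM is scaled by length and library, the deposited TPM has one sum per library, and the deposited coverage (a signal) is the mean read depth. The submitters' notes name mm9, but 54577 of 55335 identifiers carry coordinates of GENCODE M21 on GRCm38. The sources name different library kits, and do not state the strand setting.

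Groups came from the labels. FPKM was summed over repeated identifiers and analysed as log2(FPKM + 1). Genes with a mean of at least 1 FPKM were fitted with limma 3.58.1 (R 4.3.3; lmFit, eBayes, Benjamini-Hochberg), over all oocyte, all granulosa or all 21 libraries. A gene was called at an adjusted p under 0.05 and a fold over 1.5. Fold changes on this scale understate those of low genes. On simulated data for Aged against Young oocytes, 64 of 100 genes changed by 6 (log2) and 6 of 100 changed by 3 were recovered, and for oocytes against granulosa cells 99 and 69. The 3 ratios were tested with exact permutation tests over libraries. Coverage over FPKM, taken as the median of 21693 single-exon genes, gave each library's depth. The files hold no counts, and no counting interval is given.

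The members and lists were chosen with earlier results of these data known. All 10 members are named, with called list genes up to 2 per list, comparison and direction, and the 3 nearest genes of each member with a mean of at least 10 FPKM in oocytes. A few genes that this rule takes in are not reported here. List genes given without the 5 libraries that went against their label were chosen after their values were seen, as were those libraries (median of 9 oocyte markers under 50 FPKM in oocytes or over it in granulosa cells). Alternatives were the pseudocount, the low-value filter, TPM, quantile normalization, trend and robust moderation, scaling to oocyte markers, a replicate block, coverage over depth, and leaving out libraries.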

Additional observations from a re-analysis of the deposited data

How the results depend on the processing

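The number of members called depended on the processing. In oocytes against granulosa cells 5 members were called, but 1 under quantile normalization, 0 with trend and robust moderation, 3 with coverage divided by depth in place of FPKM and 0 without the Aged + LRP1low libraries, where 302, 0, 318 and 20 of all genes were called against 654. In Aged + LRP1high against Aged + LRP1low oocytes 4 were called, but 0 with a pseudocount of 0.1, 1 under quantile normalization, 2 with trend and robust moderation and 1 with coverage divided by depth, where 0, 704, 10109 and 3396 of all genes were called against 7291. At p-values without adjustment, 1 member passed in Aged + Unsorted against Aged, 2 in Aged + LRP1high against Aged, 1 in Aged + LRP1low against Aged and 1 in Aged + LRP1high against Young oocytes, 2 in Aged + LRP1high and 1 in Aged + LRP1low against Aged granulosa cells, and 2 in the comparison of the LRP1high changes, where 0 were called. With the replicate block, 1 member was called in oocytes against granulosa cells (Tet3, 2.97) and 0 in Aged + LRP1high against Aged + LRP1low oocytes, with 80 and 0 of all genes. Deviations of same-numbered libraries from their group means correlated between -0.44 and 0.44 in oocytes and between -0.08 and 0.26 in granulosa cells. In a group of 2 libraries the deviations mirror each other, so these values cannot settle whether the numbers carry a pairing. Leaving out each library in turn gave 0 to 7 calls in oocytes against granulosa cells, 0 in Aged + LRP1high against Aged + LRP1low oocytes, and 0 to 2 in Aged + Unsorted and in Aged + LRP1high against Aged oocytes and in the comparison of the LRP1high changes, the 2 always without Aged oocyte library 2. The cause was not tested.

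Scaled to oocyte markers, the differences in Aged + LRP1high against Aged + LRP1low oocytes were -1.17 for Dnmt1, -0.66 for Uhrf1 and -0.44 for Zfp57, a turn of sign that goes with a shift of the median of all genes from -1.89 to -7.78. Under quantile normalization the difference of LRP1high changes was 0.82 for Tet1. Without the libraries against their label the Dnmt1 share differed by 43.2 points and the Dppa3 to Uhrf1 log2 ratio by 2.13, both past the threshold. These libraries were chosen by oocyte markers, which Dnmt1 and Dppa3 followed. The Tet3 share stayed past it under every alternative run, at 55.7 to 67.4 points with each library left out in turn. Depth limits genes near 1 FPKM, such as Tet1 and Dnmt3b in oocytes and the TET genes in several granulosa libraries.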
